A study of Mus musculus with 12 samples.

Results

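Transcript levels were examined for 10 genes of the Notch2 pathway and of the surface phenotype that separates follicular from marginal zone B cells. The genes were chosen by symbol: the receptors *Notch1* and *Notch2*, their DNA-binding partner *Rbpj*, the Notch-responsive genes *Dtx1* and *Hes1*, the surface genes *Cr2*, *Fcer2a*, *Cd1d1* and *Cd9*, and *Mzb1*. They are 10 of the 12837 genes that had a row in both deposited tables. Of these, 9 were listed under their own symbol, and *Mzb1* was listed under its older symbol 2010001M09Rik, so no gene fell below the smallest row sum in the tables, which was 10 reads over 6 libraries. The libraries came from follicular B cells, sorted as CD21/35- CD23+ cells from spleens of adult male mice. WT mice were Gpr174+/Y, and GPR174-deficient (KO) mice were their Gpr174-/Y littermates, in which the only coding exon of this X-linked receptor gene had been exchanged for a tdTomato reporter throughout the body. RNA came either from freshly sorted cells (0 h) or from cells kept for 4 h in complete medium with no added stimulus, with 3 mice per genotype at each time. The labels do not say whether libraries with the same number at 0 h and 4 h came from the same mouse.

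Notch receptors are cleaved when they bind Delta-like or Jagged ligands on a neighbouring cell, and the released intracellular domain joins RBPJ and Mastermind-like proteins on DNA to switch on genes such as *Hes1* and *Dtx1*. In the spleen, signalling from the ligand DLL1 through NOTCH2 drives developing B cells to the marginal zone fate, and mice without NOTCH2 or RBPJ in B cells lack marginal zone cells. Marginal zone B cells are known for high CD21/35 (both encoded by *Cr2*), CD1d and CD9 with little CD23, whereas follicular B cells carry CD23 (encoded by *Fcer2a*) with less CD21/35. MZB1 is an endoplasmic reticulum protein that assists antibody secretion and is abundant in marginal zone B cells and plasma cells.

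Library totals ran from 6098941 to 11618787 reads, and no replicate pair matched within sampling noise. As the check of the genotype labels, *Gpr174* was at 150, 150 and 157 CPM (reads per 1000000 reads of the scaled library total) in the 3 WT libraries and 73.4, 76.7 and 74.0 CPM in the 3 KO libraries at 0 h. At 4 h it was at 163, 169 and 153 CPM in WT and 118, 106 and 105 CPM in KO. At each time the highest KO library was under the lowest WT library. The KO level was not 0 at either time. The row is for the gene as a whole, and which part of the gene the KO reads came from was not tested. The 4 B cell markers *Ms4a1*, *Cd79a*, *Cd79b* and *Pax5* summed to between 2957 and 3913 CPM in every library. T cell markers summed to 17.7 to 35.2 CPM (*Cd4* and *Cd8b1* had 0 reads in WT 0 h replicate 1), NK cell markers to 0.956 to 4.73 CPM and dendritic cell markers to 3.42 to 13.6 CPM. The 8 macrophage markers summed to 61.2 to 71.9 CPM at 0 h, and the 5 of them with a row at 4 h summed to 25.7 to 46.5 CPM, *C1qa*, *C1qb* and *C1qc* having no row there. These are bulk libraries, in which fewer cells of a type and less RNA per cell cannot be told apart.

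The sequences upstream of the 4 genes whose culture change differed between the genotypes are shown first, because the other results return to these genes. Each is the RefSeq promoter window of GRCm38.p6, from 250 bases before to 50 bases after the transcription start, printed 5′ to 3′ along the gene's strand. All 4 genes lie on the minus strand. Capitals mark the core sequence bound by RBPJ, TGGGAA on either strand (TTCCCA when read in reverse). The windows are chr2:26503773-26504072 for *Notch1*, chr5:120711620-120711919 for *Dtx1*, chr1:195176670-195176969 for *Cr2* and chr8:3694125-3694424 for *Fcer2a* at the most upstream of its 3 listed starts.
Notch1: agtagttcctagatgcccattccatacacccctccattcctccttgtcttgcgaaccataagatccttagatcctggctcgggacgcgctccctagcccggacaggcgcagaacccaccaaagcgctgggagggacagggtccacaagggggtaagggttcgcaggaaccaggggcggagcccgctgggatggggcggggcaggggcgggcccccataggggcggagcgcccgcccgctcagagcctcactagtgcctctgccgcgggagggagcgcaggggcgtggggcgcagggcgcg
Dtx1: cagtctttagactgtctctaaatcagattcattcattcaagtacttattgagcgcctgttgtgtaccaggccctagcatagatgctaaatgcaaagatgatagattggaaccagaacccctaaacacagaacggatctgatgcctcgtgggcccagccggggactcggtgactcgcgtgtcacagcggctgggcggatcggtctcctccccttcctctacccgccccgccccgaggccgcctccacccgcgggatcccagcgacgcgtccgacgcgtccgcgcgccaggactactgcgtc
Cr2: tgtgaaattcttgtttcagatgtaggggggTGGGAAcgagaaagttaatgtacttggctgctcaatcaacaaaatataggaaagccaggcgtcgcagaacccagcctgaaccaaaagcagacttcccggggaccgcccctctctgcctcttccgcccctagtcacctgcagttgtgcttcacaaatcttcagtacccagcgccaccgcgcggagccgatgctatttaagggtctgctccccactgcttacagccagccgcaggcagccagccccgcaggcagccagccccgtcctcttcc
Fcer2a: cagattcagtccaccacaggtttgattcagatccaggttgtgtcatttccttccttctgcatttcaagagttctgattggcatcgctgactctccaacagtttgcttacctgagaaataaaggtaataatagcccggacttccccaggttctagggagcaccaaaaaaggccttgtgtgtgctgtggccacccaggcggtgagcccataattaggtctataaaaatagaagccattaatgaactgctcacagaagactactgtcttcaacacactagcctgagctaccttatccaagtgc
The *Cr2* window held 1 match, at position -220 from the start, and the other 3 windows shown held none. The other windows of *Fcer2a* held 2 and 1 matches, those of *Rbpj* 2 and 1, that of *Cd9* 1, and that of *Notch2* none. The core was present in 25.6% of all 32851 promoter windows, so a match is common. The cAMP response element TGACGTCA, which occurs in 1.79% of windows, and its shorter form TGACG, or CGTCA when read in reverse, in 20.8%, were found in none of the windows of these 7 genes. *Hes1* and *Cd1d1* had no window among the 32851, and that of *Mzb1* is not reported here. Their absence from the list of matches is therefore not a result. The matches describe the letters only.

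All values are reads over annotated exons. On GRCm38, *Notch1* lies at chr2:26457903-26516663, *Notch2* at chr3:98013527-98150361, *Rbpj* at chr5:53466152-53657362, *Dtx1* at chr5:120680202-120711927 and *Hes1* at chr16:30064384-30067796. *Cr2* lies at chr1:195136811-195176716, *Fcer2a* at chr8:3681737-3694175, *Cd1d1* at chr3:86995834-86999441 and *Cd9* at chr6:125460266-125494791. The strand setting of the read counting is not given in the sources used here, so reads of *Notch1* cannot be told from those of 2 noncoding transcripts on its other strand, nor reads of *Cd9* from those of 1. *Notch2* overlaps Gm42820 on its own strand, so their reads cannot be told apart by strand. *Mzb1* overlaps *Spata24*, which was at 4.60 to 9.24 CPM, and *Cd1d1* has the near-identical copy *Cd1d2*, with which it could share reads.

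Per kilobase of exon, *Fcer2a* had the highest level of the 10 genes in fresh WT cells, at 496 ± 15.1 CPM per kb (SD, n = 3). It was followed by *Cr2* at 132 ± 5.63, *Mzb1* at 101 ± 3.27 and *Notch2* at 85.6 ± 3.58 CPM per kb. *Dtx1* (20.1 ± 0.285) and *Hes1* (19.8 ± 0.568) had overlapping libraries, and below them came *Cd1d1* at 13.4 ± 2.01 CPM per kb. The lowest levels were those of *Rbpj* at 2.51 ± 0.188, *Notch1* at 2.08 ± 0.0938 and *Cd9* at 0.936 ± 0.113 CPM per kb. *Notch2* was the more abundant receptor transcript, and each of its libraries was above every *Notch1* library per kb in all 4 groups. The order was the same in fresh KO cells, except that the libraries of *Rbpj* and *Notch1* overlapped there. After 4 h in WT, *Cr2* (19.6 ± 3.28 CPM per kb) had moved below *Mzb1* and *Notch2*, whose libraries overlapped at 118 ± 14.6 and 113 ± 4.34, and *Hes1* (1.89 ± 0.341) overlapped with *Cd9* (1.85 ± 0.325) at the foot of the order. In cultured KO cells the libraries of *Rbpj* overlapped with those of *Cd9*, those of *Cd9* with those of *Notch1*, and those of *Notch1* with those of *Hes1*. *Cr2* transcript was abundant at 0 h although the cells carry the label CD21/35-, and *Fcer2a*, which encodes the protein used for the positive gate, was the highest of the 10. Because the sort used both proteins, the 0 h levels of these 2 genes describe the gated cells.

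**Figure D1:**
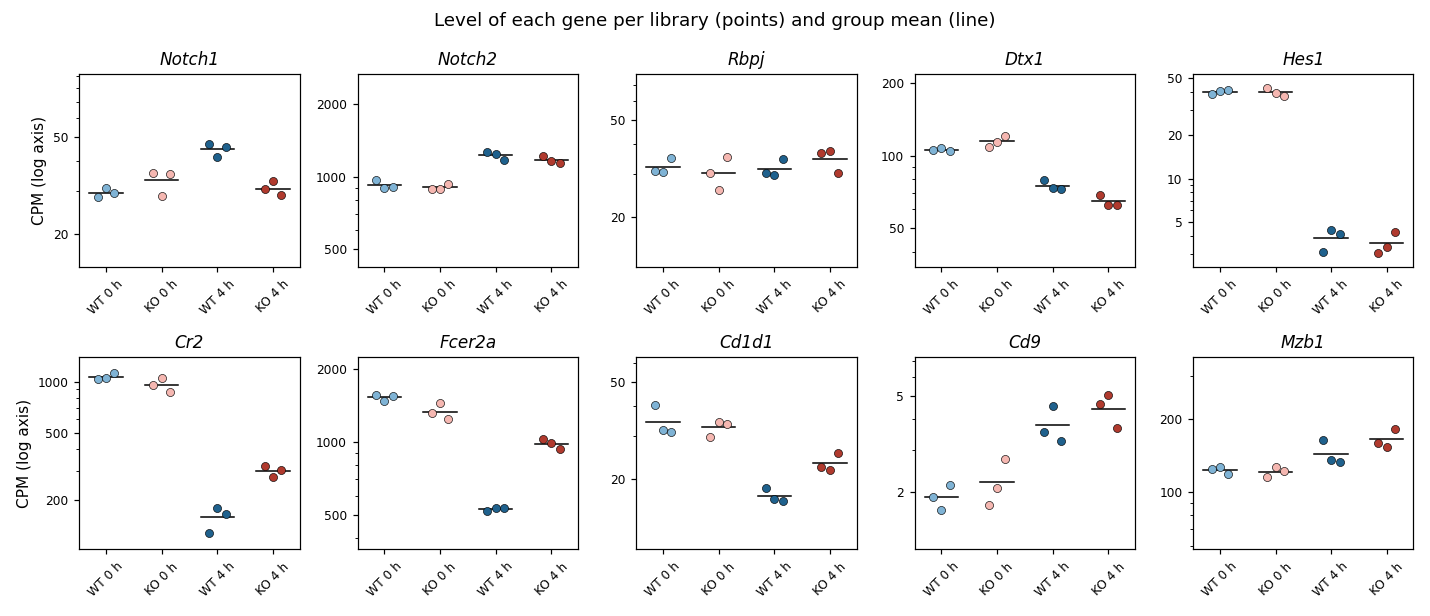
CPM of each of the 10 genes in each library (points, log axis) with the mean of each group of 3 libraries (line), for WT and KO cells at 0 h and 4 h. *Hes1*, *Cr2*, *Fcer2a*, *Dtx1* and *Cd1d1* sit lower in all cultured libraries than in the fresh libraries of their genotype, and *Notch1* at 4 h is high in WT libraries but not in KO libraries.

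Culture changed most of these genes. In WT cells 9 of 10 passed the test, an adjusted p (Benjamini-Hochberg over all genes tested) under 0.05 in edgeR's quasi-likelihood test, against 33.1% of the 11572 genes tested. Those raised were *Notch1*, *Notch2*, *Cd9* and *Mzb1* (15.1% of all genes were raised), and those lowered were *Dtx1*, *Hes1*, *Cr2*, *Fcer2a* and *Cd1d1* (18% were lowered). In KO cells 8 of 10 passed against 23.3% of all genes, with *Notch2*, *Cd9* and *Mzb1* raised (10.3% of all genes) and the same 5 genes lowered (13%). The median log2 change over the 10 genes was -0.26 in WT and -0.28 in KO, beside 0.0048 and 0.0016 over all genes tested. The culture change itself differed between the genotypes for 4 of 10 genes, against 6.39% of all genes. For *Notch1* and *Dtx1* the difference, WT change minus KO change, was above 0 (2.45% of all genes), and for *Cr2* and *Fcer2a* it was below 0 (3.94%). Between the genotypes at 0 h none of the 10 genes passed in edgeR (0.987% of all genes did), while 2 of them, *Cr2* and *Fcer2a*, had an unadjusted p under 0.05 and DESeq2 called *Fcer2a*. At 4 h 4 of 10 passed against 10.9% of all genes: *Notch1* was higher in WT (5.22% of all genes), and *Cr2*, *Fcer2a* and *Cd1d1* were higher in KO (5.67%). These comparisons use the same libraries and are not independent of each other. The 10 genes, and the lists used below, were chosen with earlier results of these data known, so the shares describe these genes only. Time in culture cannot be told apart from any difference in handling between the fresh and cultured libraries, and some macrophage markers moved with it. Of the 5 that could be tested, *Csf1r* and *Lyz2* fell in both genotypes (log2 -1.76 and -1.49 in WT, -2.26 and -1.04 in KO), *Adgre1* rose in KO (log2 1.13), and the others did not pass. The part of macrophage RNA in the culture changes was not tested.

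**Figure D2:**
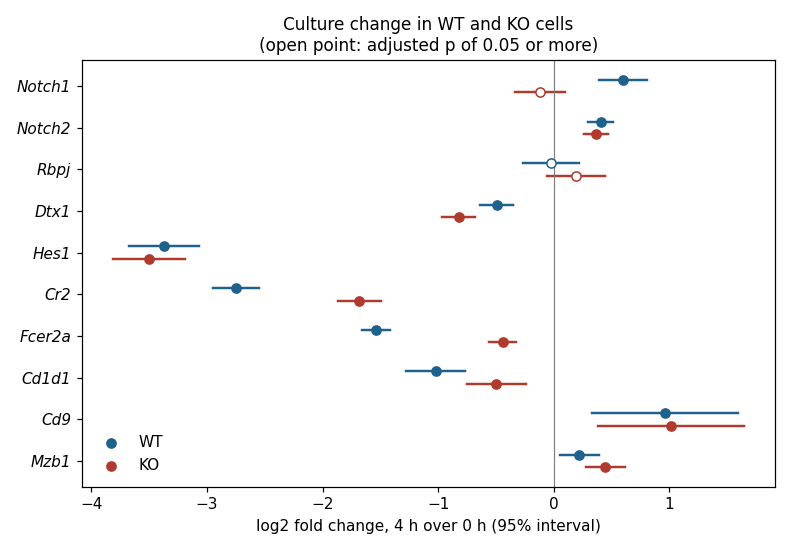
Culture change of each of the 10 genes as log2 fold change, 4 h over 0 h, in WT (blue) and KO (red) cells, with 95% intervals; filled points passed an adjusted p of 0.05. The WT and KO intervals are apart for *Notch1*, *Cr2*, *Fcer2a* and, by a small margin, *Dtx1* and *Cd1d1*, and those of *Hes1* and *Notch2* overlap. The test of the difference itself did not pass for *Cd1d1*, and the *Dtx1* call was lost in 11 of the 12 fits that left out 1 library.

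Of the receptors, *Notch2* rose by a similar amount in both genotypes. It was at 968, 900 and 902 CPM in fresh WT libraries and 1262, 1234 and 1170 CPM after culture. In KO it was at 891, 889 and 934 CPM fresh and 1211, 1156 and 1137 CPM after culture. Each cultured library was above each fresh library, whichever the genotype. The log2 change was 0.40 ± 0.05 (SE, adjusted p = 1.58e-06) in WT and 0.37 ± 0.05 (adjusted p = 1.02e-05) in KO, both from edgeR. The difference between these changes was 0.04 on the log2 scale, with a 95% interval from -0.11 to 0.18 (adjusted p = 0.864). WT and KO libraries overlapped at both times, with log2 differences, WT over KO, of 0.02 ± 0.04 at 0 h (adjusted p = 0.901) and 0.07 ± 0.06 at 4 h (adjusted p = 0.55).

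*Notch1*, the receptor known chiefly for T cell development, rose in culture in WT cells. WT libraries had 28.3, 30.9 and 29.5 CPM at 0 h and 47.1, 41.4 and 45.7 CPM at 4 h, a log2 change of 0.60 ± 0.10 (SE, edgeR adjusted p = 7.31e-05). KO libraries had 35.8, 28.7 and 35.4 CPM at 0 h and 30.6, 32.9 and 28.8 CPM at 4 h, and these overlapped (log2 change -0.12 ± 0.10, adjusted p = 0.469). All 3 cultured WT libraries were above the other 9 libraries. The culture changes differed by 0.71 ± 0.14 on the log2 scale (95% interval 0.42 to 1.01, edgeR adjusted p = 0.00263), and this call remained with each library left out in turn. At 4 h *Notch1* was 1.45-fold higher in WT than in KO (95% interval 1.26 to 1.68, adjusted p = 0.00135), whereas at 0 h the libraries overlapped at a log2 difference of -0.18 ± 0.11 (adjusted p = 0.534). Of the 7 T cell markers, *Lck* made up most of the sum and was higher in cultured KO (log2 WT over KO -0.62 ± 0.15, adjusted p = 0.0158), whereas the other 6, with few reads each, had higher means in cultured WT. *Cd3d* (log2 0.17 ± 0.38) and *Cd3e* (0.98 ± 0.82) did not pass and the other 4 were under the filter. The part of T cell RNA in the *Notch1* difference was not tested.

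*Rbpj*, which encodes the factor through which the cleaved receptors act, did not pass the test in any comparison. Its libraries lay between 25.8 and 37.3 CPM over all 4 groups, and the groups overlapped in each comparison. The log2 change in culture was -0.02 (95% interval -0.27 to 0.22, adjusted p = 0.903) in WT and 0.19 (95% interval -0.06 to 0.44, adjusted p = 0.272) in KO. Between genotypes the log2 difference, WT over KO, was 0.07 ± 0.12 at 0 h and -0.14 ± 0.11 at 4 h.

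*Hes1* and *Dtx1*, the Notch-responsive genes of this set, both fell while *Notch2* rose. *Hes1*, a transcriptional repressor, was at 39.0, 40.7 and 41.2 CPM in fresh WT libraries and 3.07, 4.38 and 4.11 CPM after culture. In KO it was at 42.7, 39.6 and 37.8 CPM fresh and 3.03, 3.35 and 4.21 CPM after culture. The fresh and cultured libraries were far apart in both genotypes, and within each time WT and KO libraries overlapped. The level that remained after culture was 9.68% of that at 0 h in WT (95% interval 7.84 to 11.95%) and 8.82% in KO (7.12 to 10.9%). These were log2 changes of -3.37 ± 0.15 (SE, edgeR adjusted p = 1.27e-13) and -3.50 ± 0.15 (adjusted p = 4.88e-13), and *Hes1* ranked 13 among the most lowered of 11572 genes in WT and 9 in KO. The difference between the changes was 0.13 on the log2 scale, with a 95% interval from -0.35 to 0.61 (adjusted p = 0.835), and the genotype difference was 0.00 ± 0.09 at 0 h and 0.14 ± 0.28 at 4 h. The cultured libraries held 19 to 39 *Hes1* reads, and the 95% interval of the 4 h genotype difference was wide, from -0.45 to 0.72 on the log2 scale.

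*Dtx1*, which encodes a ubiquitin ligase that binds Notch and is itself Notch-responsive, fell less. WT libraries had 105, 107 and 105 CPM at 0 h and 79.1, 73.7 and 72.7 CPM at 4 h. KO libraries had 108, 114 and 120 CPM at 0 h and 68.6, 62.8 and 62.5 CPM at 4 h. At 0 h every KO library was above every WT library, and at 4 h every KO library was below, but neither genotype difference passed the test (log2 -0.12 ± 0.06, adjusted p = 0.453, and 0.22 ± 0.07, adjusted p = 0.0782). The log2 change in culture was -0.49 ± 0.07 (edgeR adjusted p = 5.86e-06) in WT and -0.82 ± 0.07 (adjusted p = 1.07e-08) in KO. These changes differed by 0.33 ± 0.10 (95% interval 0.13 to 0.53, adjusted p = 0.0433), a call close to the threshold. It was lost, at adjusted p between 0.052 and 0.126, in 11 of the 12 fits that left out 1 library, and kept only without KO 4 h replicate 1. It was also lost with no filter on low counts (adjusted p = 0.0537).

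The surface genes *Cr2* and *Fcer2a* fell more in WT than in KO cells. *Cr2*, which encodes the complement receptors CD21 and CD35, was at 1035, 1054 and 1122 CPM in fresh WT libraries and 129, 180 and 167 CPM after culture. In KO it was at 954, 1055 and 873 CPM fresh and 320, 276 and 304 CPM after culture. All cultured libraries were below all fresh ones, and the 3 cultured KO libraries were above the 3 cultured WT libraries. The level that remained was 14.9% of that at 0 h in WT (95% interval 12.99 to 17.03%) and 31.2% in KO (27.4 to 35.5%), from log2 changes of -2.75 ± 0.09 (SE, edgeR adjusted p = 3.04e-15) and -1.68 ± 0.09 (adjusted p = 1.29e-11). *Cr2* ranked 34 among the most lowered genes in WT and 116 in KO. The changes differed by -1.07 ± 0.13 on the log2 scale (95% interval -1.33 to -0.81, adjusted p = 6.01e-06). At 4 h the gene was 1.88-fold higher in KO than in WT (log2 WT over KO -0.91 ± 0.10, adjusted p = 9.22e-06), while at 0 h the libraries overlapped (log2 0.15 ± 0.06, adjusted p = 0.314). The 4 h difference and the difference between the changes passed with each library left out in turn.

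*Fcer2a*, which encodes the low-affinity IgE receptor CD23, was at 1570, 1480 and 1546 CPM in fresh WT libraries and 516, 535 and 533 CPM after culture. In KO it was at 1311, 1449 and 1244 CPM fresh and 1029, 988 and 934 CPM after culture. The KO libraries thus started slightly below those of WT and ended above them, with no overlap at either time. WT cells kept 34.5% of the 0 h level (95% interval 31.7 to 37.5%) and KO cells 73.7% (68.0 to 79.9%), from log2 changes of -1.54 ± 0.06 (SE, edgeR adjusted p = 1.42e-14) and -0.44 ± 0.06 (adjusted p = 4.43e-06). The changes differed by -1.10 ± 0.08 on the log2 scale (95% interval -1.26 to -0.93, adjusted p = 5.43e-09). At 4 h the gene was 1.86-fold higher in KO (log2 WT over KO -0.90 ± 0.06, adjusted p = 4.3e-08). At 0 h it was 1.14-fold higher in WT (log2 0.19 ± 0.05), which did not pass in edgeR (adjusted p = 0.105) but did in DESeq2 (adjusted p = 0.0374) and in edgeR without KO 0 h replicate 2 (adjusted p = 0.0151). The protein had been gated on, so the 0 h comparison is between cells chosen for it.

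*Cd1d1*, which encodes the lipid-presenting molecule CD1d, was at 40.3, 31.7 and 31.1 CPM in fresh WT libraries and 18.2, 16.4 and 16.1 CPM after culture. In KO it was at 29.8, 34.2 and 33.7 CPM fresh and 22.3, 21.6 and 25.4 CPM after culture. It fell in both genotypes, and the cultured KO libraries were all above the cultured WT libraries. The log2 change was -1.02 ± 0.12 (SE, edgeR adjusted p = 1.13e-06) in WT and -0.50 ± 0.12 (adjusted p = 0.00441) in KO. The difference between the changes was -0.53 ± 0.17 and did not pass (adjusted p = 0.0785). At 4 h *Cd1d1* was 1.37-fold higher in KO (log2 WT over KO -0.45 ± 0.12, adjusted p = 0.0281), but this call was lost in DESeq2 (adjusted p = 0.0621) and in 5 of the 6 fits that left out 1 library (adjusted p 0.0512 to 0.133), all but the fit without WT 4 h replicate 1. At 0 h the libraries overlapped, with a log2 difference of 0.07 ± 0.12.

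*Cd9*, which encodes a tetraspanin carried by marginal zone B cells and plasma cells, had the lowest level per kb in fresh cells and 14 to 42 reads per library. WT libraries had 1.91, 1.68 and 2.14 CPM at 0 h and 3.55, 4.54 and 3.27 CPM at 4 h. KO libraries had 1.77, 2.07 and 2.75 CPM at 0 h and 4.61, 5.02 and 3.67 CPM at 4 h. Every cultured library was above every fresh one, with log2 changes of 0.96 ± 0.30 (SE, edgeR adjusted p = 0.0189) in WT and 1.01 ± 0.30 (adjusted p = 0.0183) in KO. The WT call was lost without WT 4 h replicate 2 (adjusted p = 0.0786). The KO call was lost without KO 0 h replicate 1 (0.102) or 2 (0.0541) and without KO 4 h replicate 1 (0.0548) or 2 (0.0809), these values being adjusted p. The difference between the changes had a wide 95% interval, from -0.97 to 0.86 on the log2 scale (adjusted p = 0.972), and WT and KO libraries overlapped at both times (log2 WT over KO -0.20 ± 0.37 at 0 h and -0.24 ± 0.27 at 4 h).

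*Mzb1* was at 124, 126 and 119 CPM in fresh WT libraries and 164, 135 and 132 CPM after culture. In KO it was at 115, 127 and 122 CPM fresh and 159, 153 and 183 CPM after culture. Each genotype's cultured libraries were above its fresh ones, with log2 changes of 0.22 ± 0.08 (SE, edgeR adjusted p = 0.0383) in WT and 0.44 ± 0.08 (adjusted p = 3.02e-04) in KO. The WT call was lost without any 1 of the 3 WT 0 h libraries (adjusted p = 0.0608, 0.0551 and 0.118 for replicates 1, 2 and 3), and without WT 4 h replicate 1, where the log2 change was 0.12 (adjusted p = 0.259). It was also lost in a fit of the 2 WT groups alone (adjusted p = 0.0622). The changes did not differ past the threshold (-0.22 ± 0.11, adjusted p = 0.329). At 4 h the WT and KO libraries overlapped (log2 WT over KO -0.20 ± 0.09, adjusted p = 0.17), and the difference passed only without WT 4 h replicate 1, the highest WT library (log2 -0.31, adjusted p = 0.018). At 0 h the log2 difference was 0.01 ± 0.06. The 5 plasma cell markers with a row summed to 519 to 571 CPM in cultured WT libraries and 443 to 478 CPM in cultured KO libraries. *Irf4* made up most of this sum and of the gap, with means of 435 CPM in cultured WT and 372 CPM in cultured KO. The means of *Jchain* were close, at 22.1 and 21.9 CPM. The part of plasma cell RNA in the *Mzb1* levels was not tested.

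**Figure D3:**
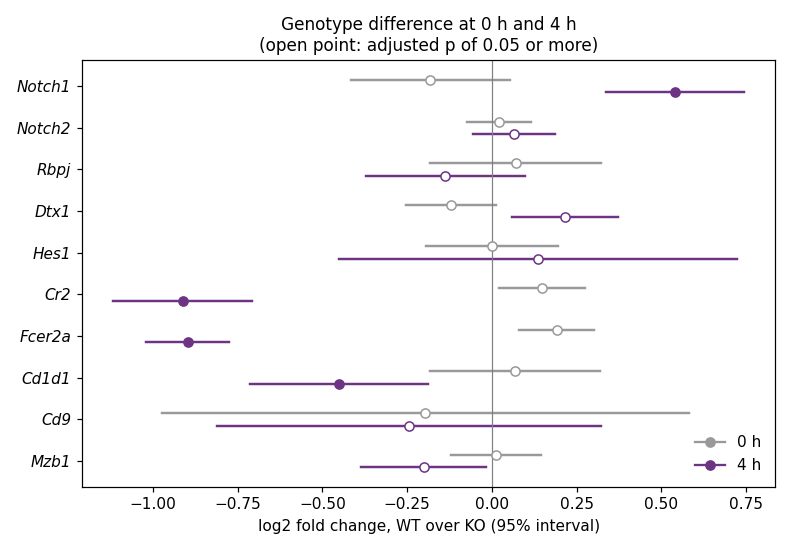
Genotype difference of each of the 10 genes as log2 fold change, WT over KO, at 0 h (grey) and 4 h (purple), with 95% intervals; filled points passed an adjusted p of 0.05. At 0 h no point is filled, and at 4 h *Notch1* lies above 0 while *Cr2*, *Fcer2a* and *Cd1d1* lie below 0.

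Some other marker levels also differed between the genotypes, before or after culture. At 0 h the plasma cell marker *Sdc1* was higher in WT (log2 1.64 ± 0.28, edgeR adjusted p = 0.0101). It was the only 1 of 5 plasma cell markers tested to pass at 0 h (0.987% of all genes). *Jchain* was lower in WT but did not pass (log2 -0.87 ± 0.28, adjusted p = 0.173). Dendritic cell markers summed to 8.87 to 13.6 CPM in cultured WT and 3.42 to 7.88 CPM in cultured KO libraries, and *Siglech* had 0 reads in KO 4 h replicate 3. Most of this gap came from *Flt3*, with means of 6.65 CPM in cultured WT and 2.33 CPM in cultured KO. *Zbtb46* and *Siglech*, with few reads, also had higher means in WT, and *Itgax* had a higher mean in KO (1.14 CPM in WT and 1.44 CPM in KO). *Cd93*, the marker of transitional B cells, was at 28.5 to 37.3 CPM in cultured WT and 17.5 to 22.5 CPM in cultured KO libraries. Of the 4 B cell markers, 2 passed at 4 h, against 10.9% of all genes (5.67% higher in KO). These were *Ms4a1* (log2 WT over KO -0.59 ± 0.08, edgeR adjusted p = 1.68e-04) and *Pax5* (-0.43 ± 0.06, adjusted p = 6.85e-05), both lower in WT. *Cd79a* (0.22 ± 0.07) and *Cd79b* (-0.06 ± 0.06) did not pass, and the sums of the 4 overlapped, at 2957 to 3408 CPM in WT and 3369 to 3428 CPM in KO. In culture mean *Ms4a1* went from 980 to 383 CPM in WT and from 863 to 578 CPM in KO. Mean *Pax5* went from 368 to 217 CPM in WT and from 341 to 293 CPM in KO, whereas mean *Cd79b* rose in both. For 2 of the 4 the culture change differed between the genotypes, each time with a difference below 0 (3.94% of all genes). The part of these differences in the results for *Notch1*, *Cr2*, *Fcer2a* and *Cd1d1* was not tested.

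Of 54 other genes of the Notch pathway, 49 had a row and 44 could be tested for culture. The ligands *Dll3* and *Dll4*, the receptor *Notch3* and the targets *Hey2* and *Heyl* had no row in either table, and *Hey1* had one only at 4 h. Other listed targets changed less in culture than *Hes1*. Mean *Hes5* went from 4.37 to 3.09 CPM in WT and from 4.41 to 4.95 CPM in KO. Mean *Hes6* went from 25.2 to 19.9 CPM in WT and from 23.8 to 21.3 CPM in KO. Mean *Nrarp* went from 7.12 to 5.37 CPM in WT and from 5.51 to 3.79 CPM in KO. In WT 14 of 44 passed (9 raised and 5 lowered) and in KO 15 of 44 (11 raised and 4 lowered), beside the 33.1% and 23.3% of all genes given above, with median log2 changes of 0.05 and 0.14. *Dtx4*, a relative of *Dtx1*, was raised 4.18-fold in WT (log2 2.06 ± 0.18, SE, edgeR adjusted p = 7.24e-09) and 1.56-fold in KO (log2 0.65 ± 0.19, adjusted p = 0.0155). The KO call for *Dtx4* was lost without KO 0 h replicate 3 (0.0905) or KO 4 h replicate 3 (0.0654, both adjusted p). *Dtx3* (log2 -0.86 ± 0.19), the Mastermind-like coactivator gene *Maml2* (-0.80 ± 0.09) and the acetyltransferase gene *Kat2b* (-0.67 ± 0.12) were lowered in WT. In KO *Kat2b* was also lowered (-0.32 ± 0.11, adjusted p = 0.0462), while *Dtx3* (-0.20 ± 0.19) and *Maml2* (-0.18 ± 0.09) did not pass. *Notch4* (log2 0.79 ± 0.23), *Cir1*, a corepressor that binds RBPJ (0.72 ± 0.16), and *Maml3* (0.48 ± 0.12) were raised in KO. In WT *Cir1* was also raised (0.56 ± 0.15, adjusted p = 0.00682), while *Notch4* (0.51 ± 0.23, adjusted p = 0.0871, libraries apart) and *Maml3* (0.06 ± 0.12) did not pass. The difference between the changes did not pass for *Dtx3*, *Kat2b*, *Notch4*, *Cir1* or *Maml3* (adjusted p 0.177 to 0.774). The *Notch4* call was lost without KO 0 h replicate 1 (0.0786) or KO 4 h replicate 3 (0.079), and the *Maml3* call without KO 0 h replicate 1 (0.0533), again as adjusted p.

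Between genotypes none of the 43 pathway genes tested at 0 h passed in edgeR or in DESeq2. Few of all genes did, 0.987% in edgeR and 154 of 11345 in DESeq2. Of the 43, 5 had an unadjusted p under 0.05 in each. At 4 h 2 of 43 passed, against 10.9% of all genes, with *Dtx4* higher in WT by 1.05 ± 0.13 on the log2 scale (edgeR adjusted p = 4.23e-05) and *Maml2* higher in KO (log2 WT over KO -0.54 ± 0.09, adjusted p = 0.00106). The same 2 genes were those, of 44 tested, whose culture change differed between the genotypes (6.39% of all genes), by 1.42 ± 0.26 for *Dtx4* (adjusted p = 0.00114) and -0.62 ± 0.13 for *Maml2* (adjusted p = 0.00437). *Dtx1* and *Dtx4* thus moved in opposite directions in culture, and for both the WT change minus the KO change was above 0.

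**Figure D4:**
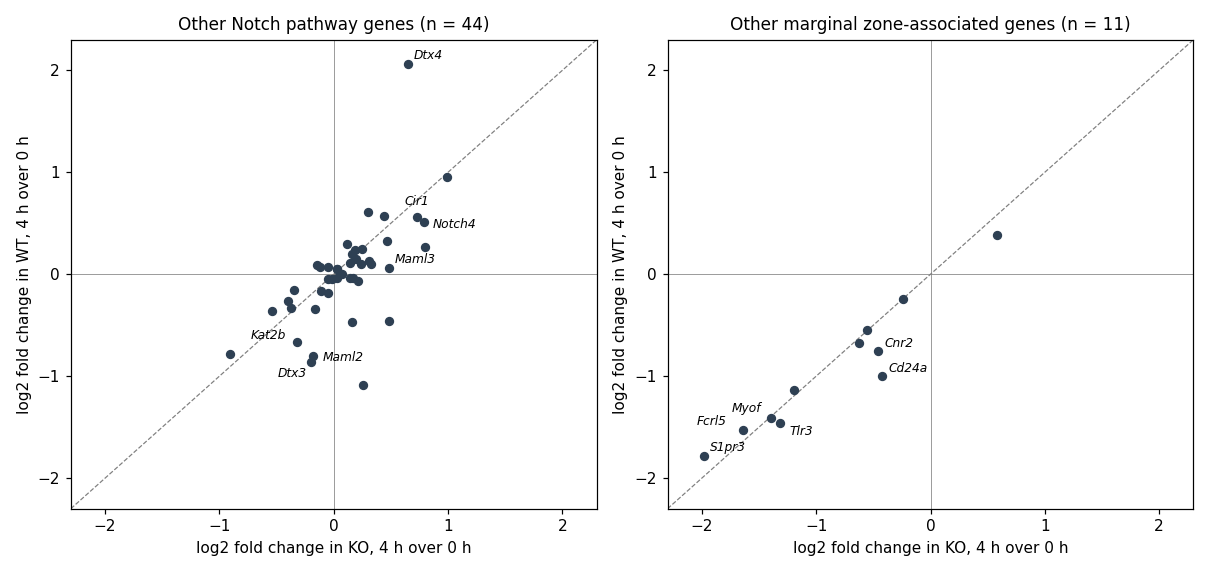
Culture change, 4 h over 0 h, as log2 fold change in WT cells (vertical axis) against KO cells (horizontal axis) for the 44 other Notch pathway genes (left) and 11 other marginal zone-associated genes (right) that could be tested; each point is 1 gene and the dashed line marks equal changes. *Dtx4* lies above the line, and 10 of the 11 marginal zone-associated genes lie below 0 in both genotypes.

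Genes associated with marginal zone B cells other than those above fell in culture in both genotypes. Of 13 listed, 11 were tested, and all 11 passed in WT and in KO, with 10 lowered and *S1pr1* raised each time. Of all genes, 33.1% passed in WT and 23.3% in KO, with 18% and 13% lowered. Their median log2 change was -1.003 in WT and -0.629 in KO. Taken gene by gene, the WT change minus the KO change had a median of only -0.016 (-0.0011 over all genes). *S1pr3*, a sphingosine-1-phosphate receptor gene, fell to 29.1% of its 0 h level in WT and 25.3% in KO. *Fcrl5*, an Fc receptor-like gene, fell to 34.7% in WT and 32.0% in KO, *Myof* to 37.6% and 38.0%, and *Tlr3* to 36.3% and 40.1%. The culture change differed between genotypes for 2 of the 11 (6.39% of all genes), *Cd24a* (log2 -0.58 ± 0.13, edgeR adjusted p = 0.00554) and the cannabinoid receptor gene *Cnr2* (-0.30 ± 0.09, adjusted p = 0.0497). The *Cnr2* call was lost in 10 of the 12 fits that left out 1 library (adjusted p 0.0604 to 0.164), all but those without WT 0 h replicate 1 or KO 4 h replicate 3, and under 4 of the other settings. At 0 h *Cd24a* was higher in WT (log2 0.37 ± 0.07, adjusted p = 0.0138), a call lost without KO 0 h replicate 1 (0.0833) or 3 (0.0666). At 4 h *Cnr2* was lower in WT (log2 -0.26 ± 0.06, adjusted p = 0.0125), a call lost without WT 4 h replicate 3 (0.0562) or KO 4 h replicate 1 (0.0859, all adjusted p). *Cnr2* was the only 1 of the 11 to pass at 4 h, a share near the 10.9% of all genes.

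Genes associated with recirculating follicular B cells gave no common direction. Of 4 listed, *Ighd* had no row and 3 were tested, and all 3 differed between the genotypes at 4 h, against 10.9% of all genes. The list was chosen with earlier results of these data known, so this share describes the listed genes only. The homing receptor genes *Ccr7* (2.26-fold, log2 1.18 ± 0.07, edgeR adjusted p = 1.04e-08) and *Cxcr5* (log2 0.47 ± 0.07, adjusted p = 2.05e-04) were higher in WT. *Klf2*, a transcription factor gene that governs B cell positioning, was higher in KO (log2 WT over KO -0.59 ± 0.07, adjusted p = 6.43e-05). At 0 h *Klf2* was the only 1 of the 3 to pass, against 0.987% of all genes. It was higher in WT at that time (log2 0.43 ± 0.05, edgeR adjusted p = 3.41e-04). In culture *Ccr7* rose in WT (log2 1.49 ± 0.07) and less in KO (0.52 ± 0.07), and the changes differed by 0.97 ± 0.10 (adjusted p = 1.2e-06). *Cxcr5* fell in WT (log2 -0.32 ± 0.06) and KO (-0.63 ± 0.06). *Klf2* fell in WT (log2 -0.84 ± 0.07) and was raised in KO at the threshold (0.18 ± 0.07, adjusted p = 0.0499), a call lost in 9 of the 12 fits that left out 1 library (adjusted p 0.0511 to 0.195), all but those without WT 4 h replicate 1 or 2 or KO 4 h replicate 3. The difference between its changes was -1.02 ± 0.09 (adjusted p = 1.85e-07). The difference for *Cxcr5*, 0.31 ± 0.09 (adjusted p = 0.0305), was lost in 8 of the 12 fits that left out 1 library (adjusted p 0.0562 to 0.0985), and held without KO replicate 3 or WT replicate 1 of the fresh cells, and without KO replicate 1 or WT replicate 2 of the cultured cells.

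The genes whose levels followed those of 4 of the 10 genes most closely were found by the Pearson correlation of log2 CPM over the 12 libraries, among 11562 genes. The libraries share their group structure, so these values describe likeness only. For *Notch2* they were *Txnrd3* (r = 0.992), *Gclc* (0.985) and *Il2ra* (0.981). For *Hes1* they were *Spib* (0.994), *Fcrl1* (0.994) and *Cd97* (0.993). For *Cr2* they were *Evi2b* (0.997), *Arhgap4* (0.993) and *Fgd2* (0.992), and for *Fcer2a* they were *Tlr1* (0.990), *Swap70* (0.988) and *St6gal1* (0.987). No gene was shared between the 4 sets of 3.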

How the data were processed

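RNA-seq read counts per gene were deposited by the authors as 1 table for 0 h and 1 for 4 h (13269 and 13142 genes, 12 libraries). Per the paper's methods and the submitters' processing notes, 50 bp single-end reads from NuGEN Ovation libraries were aligned to mm10 with STAR and counted with HTSeq; versions, annotation and strand setting are not given in the sources used here. The amplified libraries carry no molecular identifiers, so counts can include PCR copies. Genotypes were compared within each table (6 libraries), and culture and its difference between genotypes were tested in 1 fit over 12 libraries, with edgeR 4.0.16 (R 4.3.3, limma 3.58.1; TMM factors, filterByExpr with a minimum count of 10, quasi-likelihood test, Benjamini-Hochberg over all genes tested). Standard errors are the log2 change over the square root of F. Levels are CPM on TMM-scaled totals, per kb of the GENCODE M21 exon union where stated. DESeq2 1.42.0, other scalings and filters, a replicate block and leaving out each library were tried. Replicates are labelled as separate samples; the spread between them is that between 3 libraries per group. The fit was tested on simulated data. All 10 genes were named in every comparison, and from each other list the 4 largest changes past the threshold whose libraries did not overlap. The members and lists were chosen with earlier results of these data known, and 2 genes of these lists are not reported here. Figures were drawn with matplotlib 3.10.9.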

Additional observations from a re-analysis of the deposited data

Results flagged for a closer look

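For 4 of the 10 genes the culture change differed between WT and KO cells by the test of the difference itself, in edgeR's 12-library fit, with 3 libraries per group. The WT change minus the KO change, on the log2 scale, was 0.71 for *Notch1* (adjusted p = 0.00263), 0.33 for *Dtx1* (adjusted p = 0.0433), -1.07 for *Cr2* (adjusted p = 6.01e-06) and -1.10 for *Fcer2a* (adjusted p = 5.43e-09). The *Dtx1* value is the one that most fits without 1 library did not call. Groups of 3 libraries were too small for a test of single outlying libraries.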

How the results depend on the processing

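The numbers of the 10 genes called were 3 to 5 between genotypes at 4 h, 8 to 9 for culture in WT, 7 to 8 for culture in KO and 3 to 4 for the difference between these, under all alternatives run. At 0 h the number called was 0 except with DESeq2, where it was 1 (*Fcer2a*), and over fits without 1 library it ran from 0 to 1. With scaling by library totals only, values near 0 changed sign: *Notch2* (-0.011), *Hes1* (-0.0307) and *Mzb1* (-0.019) at 0 h, and *Rbpj* for culture in WT (0.0848, log2). Leaving out 1 library also changed the sign of such values. The log2 ranges at 0 h were -0.0115 to 0.0406 for *Notch2*, -0.057 to 0.138 for *Cd1d1*, -0.0424 to 0.0513 for *Hes1*, -0.0261 to 0.0527 for *Mzb1* and -0.0275 to 0.18 for *Rbpj*. The range was -0.105 to 0.0434 for *Rbpj* in WT culture, and -0.248 to 0.0888 for the difference between the *Cd9* changes. Scaling by library totals moved the median of all genes by 0.11 (WT) and 0.09 (KO) in culture. It turned the split of raised and lowered genes from 1750 and 2080 to 3001 and 1500 in WT, and from 1193 and 1504 to 2168 and 1101 in KO. At 0 h it turned the split of genes higher in WT and in KO from 57 and 55 to 37 and 68. Without 1 library the 0 h count over all genes, 112, ran from 26 (without KO replicate 1) to 161 (without WT replicate 1). Deviations of same-numbered 0 h and 4 h libraries within a genotype were correlated at r from -0.04 to 0.15. For same-numbered WT and KO libraries r ran from -0.10 to 0.07. These correlations were weak, so the numbers were not taken as pairs, but they cannot show that the mice differed between the times. The replicate block matched same-numbered WT and KO libraries for the genotype comparisons. For culture it matched same-numbered 0 h and 4 h libraries within a genotype. With it 0, 3, 9, 8 and 3 of the 10 genes were called at 0 h, at 4 h, for culture in WT and KO and for their difference. Over all genes the calls were 138 of 11345, 1062 of 11123, and 3980, 2859 and 842 of 11572. The block lost *Cd1d1* at 4 h (edgeR adjusted p = 0.0514) and the *Dtx1* difference (0.0632). *Cd9* and cultured *Hes1* rested on the fewest reads, under 50 per library.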
